A study of Brassica napus with 10 samples.

Results

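Protein disulfide isomerases (PDIs) were followed here through the 6 *Brassica napus* genes that the study's list of endoplasmic reticulum (ER) stress genes names as co-orthologs of an arabidopsis PDI and that have a row in the count table of 59458 genes. The list holds 8 such gene IDs for PDIL1-1/PDI5 and PDIL2-2/PDI10. PDIL1-1/PDI5 has 4 counted copies, and its listed IDs A06p17850.1_BnaDAR and C05p20760.1_BnaDAR were not analysed here. PDIL2-2/PDI10 has 2 counted copies. PDIL2-3/PDI9, the other arabidopsis PDI in the list, was not analysed here. All 6 counted copies passed the filter on low counts.

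PDIs form, break and rearrange disulfide bonds between cysteines while secretory and membrane proteins fold in the ER lumen, and they also act as chaperones. Most carry thioredoxin-like domains and an ER retention signal, and in plants several of their genes are switched on when unfolded proteins accumulate in the ER. PDIL1-1/PDI5 of arabidopsis is a classical PDI, whereas PDIL2-2/PDI10 belongs to a different PDI class that is related to the mammalian protein P5. Microspores are immature male gametophytes, which continue to develop as pollen in culture or can be switched by stress to form embryos.

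All cultures were of a doubled haploid line, DH12075, that carries a pLEC1:LEC1-GFP reporter of embryo identity, and all were sampled on day 3. The HS + TSAhigh group (3 libraries) holds embryogenic structures from cultures given heat stress (HS, 33 °C for 24 h, then 25 °C) and 0.5 µM trichostatin A (TSA), an inhibitor of histone deacetylases. The HS + TSAlow group (4 libraries) had the same heat stress and 0.05 µM TSA. In both groups GFP-positive structures were collected by fluorescence activated cell sorting, so the reporter chose the cells and a mixture of embryogenic calli and embryos was pooled. The pollen group (3 libraries) was cultured at 18 °C with neither heat stress nor TSA and was not sorted. Heat stress, TSA, culture temperature, sorting and cell type differ together between either HS + TSA group and pollen and cannot be told apart, while HS + TSAhigh and HS + TSAlow differ in the TSA dose. The labelled cell types were not checked against marker genes here, since the files do not pair gene IDs with names beyond the ER stress list.

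Each library was made from amplified cDNA of 150000 cells. Libraries held 58468526 to 67884748 counted reads in HS + TSAhigh, 51838498 to 61458274 in HS + TSAlow and 93367646 to 109105528 in pollen. Within HS + TSAlow, libraries 1 and 4 stood apart from libraries 2 and 3, with a correlation over all tested genes, as log2(CPM + 1), of 0.992 between 1 and 4 and of 0.948 to 0.971 for every other pair. Within HS + TSAhigh, libraries 2 and 3 correlated by 0.970, and library 1 correlated by 0.934 with library 2 and by 0.918 with library 3. The 3 pollen libraries correlated by 0.984 to 0.986. Results that rest on these libraries are given below with and without them. The replicates are called biological, but whether each came from a separate donor plant is not given in the sources used here.

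The 6 copies lie on 6 chromosomes of the Darmor-bzh version 10 genome, and none of them overlaps another annotated gene. PDIL1-1/PDI5.1 (A07p14930.1_BnaDAR) is on A07 at 13817350 to 13820135, minus strand, with 9 exons and 1864 exonic bases. PDIL1-1/PDI5.2 (A08p28820.1_BnaDAR) is on A08 at 22635924 to 22638544, minus strand, with 8 exons and 1616 exonic bases. PDIL1-1/PDI5.3 (C07p21980.1_BnaDAR) is on C07 at 26667027 to 26669777, minus strand, with 9 exons and 1807 exonic bases. PDIL1-1/PDI5.4 (C08p21100.1_BnaDAR) is on C08 at 22102903 to 22105837, plus strand, with 9 exons and 1834 exonic bases. These 4 copies therefore come as 2 from the A and 2 from the C subgenome.

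PDIL2-2/PDI10.1 (A10p03460.1_BnaDAR) is on A10 at 1704988 to 1707938, minus strand, with 9 exons and 1538 exonic bases. Its C subgenome counterpart PDIL2-2/PDI10.2 (C05p03170.1_BnaDAR) is on C05 at 1579822 to 1582693, minus strand, with 9 exons and 1419 exonic bases. Exon lengths show how close the copies are. Exons 2 to 8 of both PDIL2-2/PDI10 copies have the same lengths, and only the first (147 and 157 bases) and the last (372 and 243 bases) differ. Among the PDIL1-1/PDI5 copies exons 2, 4, 5, 6 and 7 are of 1 length in all 4, and PDIL1-1/PDI5.2 and PDIL1-1/PDI5.4 also share the lengths of exon 1 (208 bases) and exon 3 (282 bases). How reads that fit several copies were counted is not given in the sources used here, so the split of reads between such similar copies is uncertain.

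The 4 PDIL1-1/PDI5 copies did not move together. PDIL1-1/PDI5.3 was higher in HS + TSAlow than in pollen, while its call in HS + TSAhigh was kept in only 8 of 23 alternative analyses. PDIL1-1/PDI5.2 and PDIL1-1/PDI5.4 had higher means in embryogenic structures without passing the test. In HS + TSAhigh over pollen the log2 fold changes of PDIL1-1/PDI5.2 (0.53) and PDIL1-1/PDI5.3 (0.55) were nearly the same, on either side of the threshold. PDIL1-1/PDI5.1 had a lower mean in embryogenic structures, also without passing the test. Both PDIL2-2/PDI10 copies fell in HS + TSAlow and had means near those of pollen in HS + TSAhigh. The call of PDIL2-2/PDI10.2 in HS + TSAlow was kept in only 15 of 23 alternatives. Levels are given as CPM, which are counts scaled to the TMM-normalised size of each library, so that 1 gene can be compared between libraries.

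PDIL1-1/PDI5.3 had 101, 73.7 and 66.9 CPM in the HS + TSAhigh libraries 1 to 3, against 99.0, 95.3, 112 and 113 CPM in HS + TSAlow and 43.1, 50.3 and 72.0 CPM in pollen. Every HS + TSAlow library lay above every pollen library, whereas the HS + TSAhigh range reached into that of pollen. Its log2 fold change was 0.93 in HS + TSAlow over pollen (SE 0.20, edgeR adjusted p = 0.00276), a 1.90-fold rise. The log2 fold change in HS + TSAhigh over pollen was 0.55 (SE 0.21, edgeR adjusted p = 0.0483). The first call held in all 23 alternative analyses, with adjusted p of at most 0.0172. The second was kept in 8 of 23, and HS + TSAhigh library 1 was the highest of its group. Without that library the log2 fold change was 0.35 (adjusted p = 0.177), and leaving out any 1 library except pollen library 3 or HS + TSAhigh library 3 also ended the call, with adjusted p of 0.0585 to 0.177.

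PDIL1-1/PDI5.1 had 113, 122 and 108 CPM in HS + TSAhigh, against 97.5, 129.9, 145 and 97.2 CPM in HS + TSAlow and 119, 155 and 208 CPM in pollen. It was the copy of this gene with the lower mean in both sets of embryogenic structures. The HS + TSAhigh libraries sat close together, at 114 ± 7.07 CPM (SD, n = 3), while pollen averaged 160.5 ± 44.9 CPM (SD, n = 3). Log2 fold changes were -0.49 in HS + TSAhigh over pollen (SE 0.21, edgeR adjusted p = 0.0801) and -0.45 in HS + TSAlow over pollen (SE 0.20, edgeR adjusted p = 0.0847). Neither passed the test. Their 95% intervals ran from -0.95 to -0.02 and from -0.88 to -0.02, and pollen library 1, the lowest of the group, changed the call: without it the values were -0.67 (adjusted p = 0.0256) and -0.63 (adjusted p = 0.0274). Leaving out HS + TSAlow library 3 also brought both under the threshold, with adjusted p of 0.0497 and 0.0321. So did edgeR with no filter on low counts (adjusted p = 0.0452 and 0.0445).

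PDIL1-1/PDI5.2 had 189.7, 176 and 234 CPM in HS + TSAhigh, against 154, 229.8, 229 and 175 CPM in HS + TSAlow and 104, 132 and 179 CPM in pollen. Only the highest pollen library reached the range of the embryogenic structures. The log2 fold change was 0.53 in HS + TSAhigh over pollen (SE 0.22, edgeR adjusted p = 0.0654) and 0.51 in HS + TSAlow over pollen (SE 0.21, edgeR adjusted p = 0.064). Without pollen library 3 these were 0.76 (adjusted p = 0.0196) and 0.74 (adjusted p = 0.0197), and without HS + TSAlow library 1 the second was 0.61 (adjusted p = 0.039).

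PDIL1-1/PDI5.4 had 231, 231 and 294 CPM in HS + TSAhigh, against 177, 335, 304 and 222 CPM in HS + TSAlow and 155, 177 and 257 CPM in pollen. The groups overlapped in every comparison. Its log2 fold changes over pollen were 0.36 in HS + TSAhigh (SE 0.25, edgeR adjusted p = 0.258) and 0.40 in HS + TSAlow (SE 0.23, edgeR adjusted p = 0.187). With HS + TSAlow libraries 1 and 4 left out, a setting chosen after seeing the data, the second was 0.70 (adjusted p = 0.0306).

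PDIL2-2/PDI10.1 had 50.3, 71.4 and 89.7 CPM in HS + TSAhigh, against 29.3, 43.3, 41.6 and 35.1 CPM in HS + TSAlow and 53.2, 83.8 and 99.3 CPM in pollen. All 4 HS + TSAlow libraries lay below all 6 others. In HS + TSAlow over pollen the log2 fold change was -1.08 (SE 0.24, edgeR adjusted p = 0.00362), a 2.11-fold lower level, and this call held in all 23 alternatives with adjusted p of at most 0.0404. The value in HS + TSAhigh over HS + TSAlow was 0.92 (SE 0.24, edgeR adjusted p = 0.0334), a 1.89-fold rise. That call was kept in 14 of 23 alternatives. It was lost without HS + TSAlow library 1, 3 or 4 (adjusted p = 0.092, 0.0562 and 0.0737) and without HS + TSAhigh library 2 or 3 (adjusted p = 0.0852 and 0.124), and with HS + TSAlow libraries 1 and 4 both left out it was 0.73 (adjusted p = 0.189). Over pollen, the HS + TSAhigh libraries gave a log2 fold change of -0.16 (SE 0.26, edgeR adjusted p = 0.638), with a 95% interval of -0.72 to 0.40.

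PDIL2-2/PDI10.2 had 90.7, 108 and 131 CPM in HS + TSAhigh, against 53.4, 97.1, 95.7 and 60.0 CPM in HS + TSAlow and 82.0, 133 and 164 CPM in pollen. The 2 HS + TSAlow libraries that stood apart gave the lowest values, while libraries 2 and 3 lay between pollen libraries 1 and 2. Its log2 fold change in HS + TSAlow over pollen was -0.72 (SE 0.27, edgeR adjusted p = 0.0465). This call was kept in 15 of 23 alternatives. It ended without HS + TSAlow library 1 or 4 (adjusted p = 0.108 for each) and without pollen library 2 or 3 (adjusted p = 0.115 and 0.204), and with both HS + TSAlow libraries 1 and 4 left out it was -0.39 (adjusted p = 0.286). The log2 fold change was -0.20 in HS + TSAhigh over pollen (SE 0.29, edgeR adjusted p = 0.603) and 0.53 in HS + TSAhigh over HS + TSAlow (SE 0.27, edgeR adjusted p = 0.228).

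**Figure D1:**
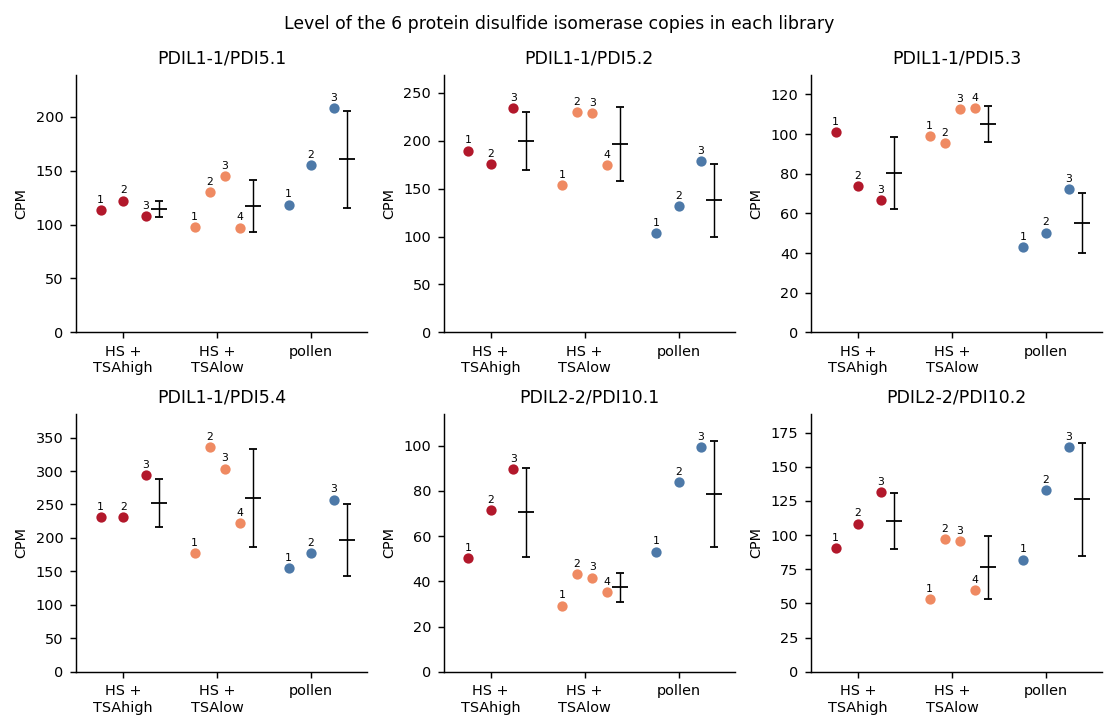
CPM (y axis, linear from 0, separate for each panel) of the 6 copies in HS + TSAhigh, HS + TSAlow and pollen; points are libraries with their number, and bars are the mean and SD. The 4 HS + TSAlow libraries of PDIL2-2/PDI10.1 lie at 29.3 to 43.3 CPM, below all others, and those of PDIL1-1/PDI5.3 at 95.3 to 113 CPM, above all 3 pollen libraries.

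Between HS + TSAlow and pollen 1 copy rose (PDIL1-1/PDI5.3), 2 fell (PDIL2-2/PDI10.1 and PDIL2-2/PDI10.2) and 3 did not pass the test, and 43.7% of all tested genes passed it (26.4% higher and 17.4% lower). CPM of these groups did not overlap for PDIL1-1/PDI5.3, which was higher, beside 29.7% of all genes, and for PDIL2-2/PDI10.1, which was lower, beside 24.4%. Between HS + TSAhigh and pollen 1 copy rose (PDIL1-1/PDI5.3), 0 were lower by the edgeR test and 5 missed its threshold, beside 46.2% of all tested genes passing (27.5% higher and 18.8% lower). At an unadjusted p of at most 0.05 1 copy was lower (PDIL1-1/PDI5.1), and 0 fell by DESeq2 or limma-voom. CPM overlapped between these groups for all 6 copies, while 31.5% of all genes were higher and 27.2% lower with no overlap. Between HS + TSAhigh and HS + TSAlow 1 copy rose (PDIL2-2/PDI10.1) and 5 did not pass, beside 10.4% of all genes passing (4.94% higher and 5.46% lower). CPM did not overlap for that copy, beside 11.9% of all genes that were higher and 12.1% that were lower with no overlap. That 10.4% is 4709 genes, and with the replicate number as a block 2836 genes were called. Read against these shares, counts over 6 genes are no result about the copies as a group. The median log2 fold change of the 6 copies was -0.03, 0.10 and -0.01 in these 3 comparisons, beside 0.10, 0.09 and 0.02 over all tested genes.

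**Figure D2:**
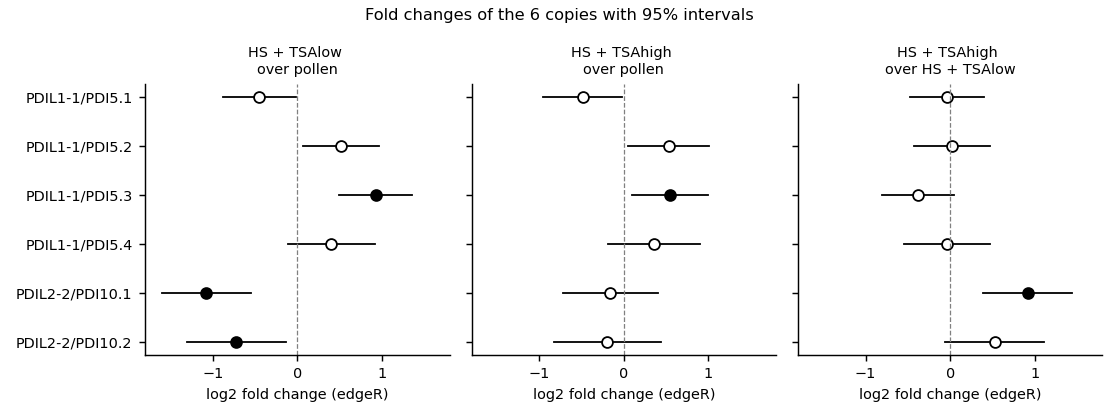
Log2 fold changes (x axis) of the 6 copies (y axis) in the 3 comparisons, with 95% intervals; filled points have an edgeR adjusted p of at most 0.05 and open points do not. In HS + TSAlow over pollen the copies run from -1.08 for PDIL2-2/PDI10.1 to 0.93 for PDIL1-1/PDI5.3, and both comparisons over pollen use the same pollen libraries.

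Between the TSA doses no PDIL1-1/PDI5 copy passed the test. Log2 fold changes in HS + TSAhigh over HS + TSAlow were -0.04 for PDIL1-1/PDI5.1 (95% interval -0.47 to 0.40), 0.02 for PDIL1-1/PDI5.2 (-0.43 to 0.47) and -0.04 for PDIL1-1/PDI5.4 (-0.55 to 0.47). The intervals leave room for changes of up to about these bounds. PDIL1-1/PDI5.3 had a log2 fold change of -0.38 (SE 0.20, 95% interval -0.81 to 0.04, edgeR adjusted p = 0.229), and without HS + TSAhigh library 1 it was -0.58 (adjusted p = 0.0717).

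The other genes of the ER stress list give the setting. BiP (the ER HSP70 chaperone), its ERDJ3B and SDF2 co-chaperones, calnexins and calreticulins (which bind glycoproteins), the sensors and transcription factors that signal ER stress, and the transport genes ECA4 and P24DELTA5 together have 46 counted members. In HS + TSAlow over pollen 2 of the 46 rose, 28 fell and 16 did not pass, with a median log2 fold change of -1.001. Over pollen, HS + TSAhigh had 2 that rose, 29 that fell and 15 that did not pass, with a median of -1.03. The PDI copies, with medians of -0.03 and 0.10, sat higher than this, a difference that was not tested. The study chose this list, so its direction in these libraries is not independent evidence.

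By family, all 8 BiP copies fell in HS + TSAlow over pollen (median log2 fold change -1.63), as did 7 of 9 co-chaperone copies (median -1.26), 6 of 9 transcription factor copies (median -1.34) and 4 of 7 lectin chaperone copies (median -0.64). Over pollen in HS + TSAhigh, 6 of 8 BiP copies, 9 of 9 co-chaperone copies, 6 of 9 transcription factor copies and 5 of 7 lectin chaperone copies fell. Calls among the sensors, proteases and transport genes were fewer or mixed. In both comparisons over pollen 1 of 9 sensor and protease copies fell and 8 did not pass, and 2 of 4 transport gene copies rose and 2 fell. Both PDIL2-2/PDI10 copies fell in HS + TSAlow, as did most BiP, co-chaperone and transcription factor copies. The call of PDIL2-2/PDI10.2 was kept in only 15 of 23 alternatives. No PDIL1-1/PDI5 copy fell by the test in either comparison, although PDIL1-1/PDI5.1 had lower means in both. Of all tested genes, 17.4% were called lower in HS + TSAlow over pollen and 18.8% in HS + TSAhigh over pollen. In bulk libraries fewer cells of a type and less RNA per cell cannot be told apart.

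To compare copies with each other, CPM were divided by the exonic length in kilobases (RPKM). PDIL1-1/PDI5.4 was the highest of the 6 copies in all 10 libraries, at 137 ± 19.7 RPKM in HS + TSAhigh (SD, n = 3), 141 ± 39.7 in HS + TSAlow (SD, n = 4) and 107 ± 29.3 in pollen (SD, n = 3). The next place was held by PDIL1-1/PDI5.2 in all 7 embryogenic libraries, at 124 ± 18.9 RPKM in HS + TSAhigh and 122 ± 23.9 in HS + TSAlow, against 85.4 ± 23.6 in pollen. The ranges of these neighbours overlapped in every group, although PDIL1-1/PDI5.4 was the higher of the pair in each library.

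PDIL1-1/PDI5.1 had 61.4 ± 3.79 RPKM in HS + TSAhigh and 63.0 ± 12.8 in HS + TSAlow, against 86.1 ± 24.1 in pollen, where it was level with PDIL1-1/PDI5.2. PDIL2-2/PDI10.2 had 77.7 ± 14.4 RPKM in HS + TSAhigh and 53.9 ± 16.3 in HS + TSAlow, against 89.0 ± 29.2 in pollen. The lowest place changed between groups. It was held by PDIL1-1/PDI5.3 in all 3 pollen libraries, with 30.5 ± 8.32 RPKM there, and by PDIL2-2/PDI10.1 in all 4 HS + TSAlow libraries, with 24.3 ± 4.18 RPKM. In HS + TSAhigh, PDIL2-2/PDI10.1 (45.8 ± 12.8 RPKM) and PDIL1-1/PDI5.3 (44.6 ± 10.0 RPKM) overlapped. All 6 were among the more abundant transcripts, with 83.8% to 97.9% of tested genes at a lower mean RPKM.

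Among the PDIL1-1/PDI5 copies, the shares of PDIL1-1/PDI5.1 and PDIL1-1/PDI5.2 differed between pollen and embryogenic structures in every library. The share of PDIL1-1/PDI5.3 lay above pollen in every HS + TSAlow library but overlapped with pollen in HS + TSAhigh. That of PDIL1-1/PDI5.4 overlapped in both. PDIL1-1/PDI5.1 made up 16.9%, 19.2% and 14.5% of the summed RPKM of the 4 copies in HS + TSAhigh, and 17.5%, 15.6%, 17.4% and 15.2% in HS + TSAlow, against 26.9%, 28.8% and 27.7% in pollen. PDIL1-1/PDI5.2 made up 32.6%, 31.9% and 36.2% in HS + TSAhigh and 31.4% to 31.8% in the 4 HS + TSAlow libraries, against 27.1%, 28.2% and 27.5% in pollen. Neither copy's shares overlapped between the embryogenic structures and pollen.

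PDIL1-1/PDI5.3 made up 15.5%, 12.0% and 9.25% in HS + TSAhigh, and 18.3%, 11.8%, 13.9% and 18.2% in HS + TSAlow, against 10.11%, 9.64% and 9.90% in pollen. Its share was therefore highest in HS + TSAlow libraries 1 and 4 and in HS + TSAhigh library 1, the libraries that stood apart within their groups. PDIL1-1/PDI5.4 kept 37.3 ± 2.53% in HS + TSAhigh (SD, n = 3) and 36.3 ± 3.58% in HS + TSAlow (SD, n = 4), against 34.7 ± 1.22% in pollen (SD, n = 3), with overlap among the groups.

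**Figure D3:**
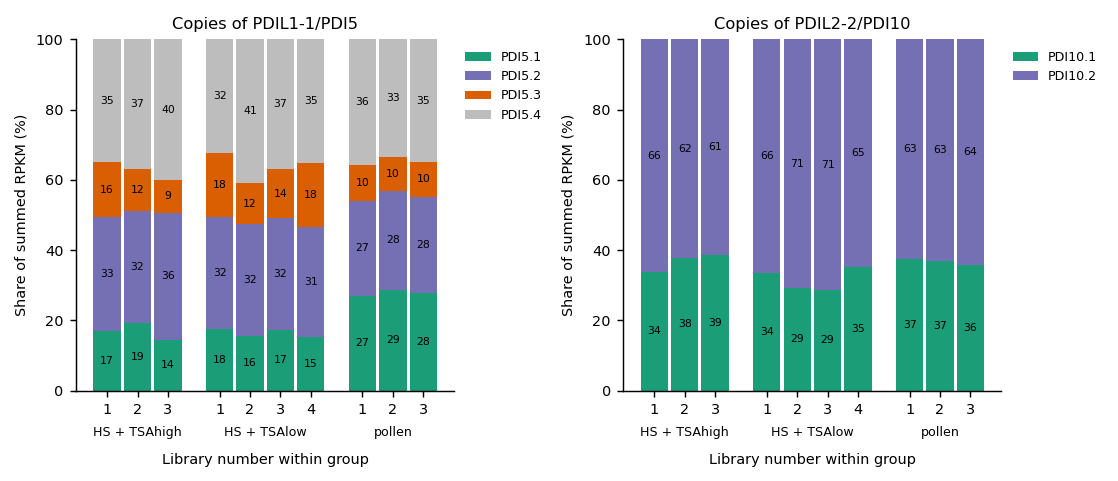
Share of the summed RPKM of each gene (y axis, percent) taken by each copy in each library (x axis), for the 4 PDIL1-1/PDI5 copies and the 2 PDIL2-2/PDI10 copies. PDIL1-1/PDI5.1 takes 14.5% to 19.2% in the 7 embryogenic libraries and 26.9% to 28.8% in the 3 pollen libraries.

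A ratio of raw counts between copies of 1 library does not depend on library size, and it was compared by exact two-sided permutation tests over libraries. With 4 against 3 libraries such a test cannot give a p below 0.029, and with 3 against 3 none below 0.1, and over the 21 tests of 7 copy pairs the smallest Benjamini-Hochberg adjusted p was 0.2, so no ratio passed the adjusted threshold. The log2 ratio of PDIL1-1/PDI5.1 over PDIL1-1/PDI5.2 was -0.75, -0.52 and -1.11 in HS + TSAhigh and -0.66, -0.82, -0.66 and -0.85 in HS + TSAlow, against 0.20, 0.24 and 0.22 in pollen. Thus the A07 copy had more counts than the A08 copy in every pollen library and fewer in every embryogenic one. The A07 copy is also longer, with 1864 exonic bases against 1616. Per length both were level in pollen, at 86.1 and 85.4 RPKM on average, so its excess of counts there was not an excess per length. The mean ratio was 1.95-fold lower in HS + TSAlow than in pollen (log2 difference -0.96, exact p = 0.0286, adjusted p = 0.2) and 2.01-fold lower in HS + TSAhigh than in pollen (log2 difference -1.01, exact p = 0.1, adjusted p = 0.21).

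The ratio of PDIL1-1/PDI5.1 over PDIL1-1/PDI5.4 was also lower in every embryogenic library than in any pollen library, but here PDIL1-1/PDI5.1 had the fewer counts in pollen too. Its log2 ratio averaged -1.13 ± 0.27 in HS + TSAhigh (SD, n = 3) and -1.12 ± 0.21 in HS + TSAlow (SD, n = 4), against -0.30 ± 0.10 in pollen (SD, n = 3), with no overlap. Over PDIL1-1/PDI5.3 it averaged 0.53 ± 0.32 in HS + TSAhigh and 0.14 ± 0.32 in HS + TSAlow, against 1.54 ± 0.08 in pollen, also with no overlap.

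Among the other 3 copies the ratios moved less. PDIL1-1/PDI5.2 over PDIL1-1/PDI5.4 had a mean log2 ratio of -0.34 ± 0.06 in HS + TSAhigh (SD, n = 3) and -0.37 ± 0.14 in HS + TSAlow (SD, n = 4), against -0.51 ± 0.08 in pollen (SD, n = 3). The differences from pollen were 0.17 (exact p = 0.1, no overlap) and 0.14 (exact p = 0.171, with overlap). PDIL1-1/PDI5.2 over PDIL1-1/PDI5.3 averaged 1.32 ± 0.45 in HS + TSAhigh and 0.89 ± 0.31 in HS + TSAlow, against 1.32 ± 0.06 in pollen, with overlap. PDIL1-1/PDI5.3 over PDIL1-1/PDI5.4 was -1.19, -1.65 and -2.14 in HS + TSAhigh and -0.84, -1.82, -1.43 and -0.98 in HS + TSAlow, against -1.85, -1.82 and -1.84 in pollen. The 3 pollen libraries were nearly equal in this ratio. Of the 7 embryogenic libraries 5 lay above them, HS + TSAlow library 2 was level with pollen library 2 and HS + TSAhigh library 3 lay below.

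**Figure D4:**
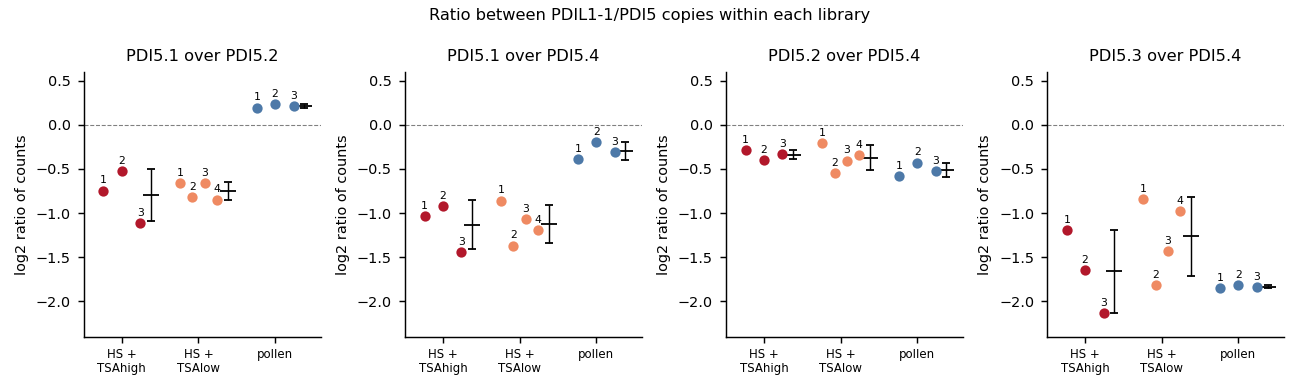
Log2 ratio of raw counts (y axis) for 4 pairs of PDIL1-1/PDI5 copies in each library of HS + TSAhigh, HS + TSAlow and pollen; points are libraries with their number, bars are the mean and SD, and the dashed line marks equal counts. The ratio of PDI5.1 over PDI5.2 is above 0 in pollen (0.20 to 0.24) and below 0 in all 7 embryogenic libraries (-0.52 to -1.11). Counts are not divided by exonic length, and per length PDI5.1 and PDI5.2 were level in pollen.

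The balance between the PDIL2-2/PDI10 copies moved less. PDIL2-2/PDI10.1 made up 36.8 ± 2.56% of their summed RPKM in HS + TSAhigh (SD, n = 3) and 31.6 ± 3.21% in HS + TSAlow (SD, n = 4), against 36.7 ± 0.817% in pollen (SD, n = 3). The log2 ratio of PDIL2-2/PDI10.1 over PDIL2-2/PDI10.2 was -0.87, -1.16, -1.20 and -0.77 in HS + TSAlow, against -0.63, -0.66 and -0.73 in pollen. These did not overlap, but by mean they differed by only -0.33 (exact p = 0.0571, adjusted p = 0.21). In HS + TSAhigh the ratio averaged -0.67 ± 0.16 (SD, n = 3), against -0.67 ± 0.05 in pollen (SD, n = 3).

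A shift in the ratio between copies was not peculiar to these genes. In HS + TSAlow over pollen the ratio did not overlap between the groups for 4 of the 7 PDI pairs, beside 56.4% of 55 pairs of copies of the other ER stress genes. Between HS + TSAhigh and pollen it did not overlap for 4 of 7, beside 60% of those pairs, and in HS + TSAhigh over HS + TSAlow for none of 7, beside 16.4%. The pairs of copies share genes and are not independent. With HS + TSAhigh and HS + TSAlow libraries paired by number, PDIL2-2/PDI10.1 over PDIL2-2/PDI10.2 was higher in HS + TSAhigh in 3 of 3 pairs (by 0.02, 0.56 and 0.65 on the log2 scale), and PDIL1-1/PDI5.1 over PDIL1-1/PDI5.3 was too (by 0.18, 0.28 and 0.33). An exact sign-flip test gave p = 0.25 for each, the smallest that 3 pairs can give. The other copy pairs among the 7 were mixed, being higher in HS + TSAhigh in 1 or 2 of the 3 library pairs. Whether the numbers pair the libraries could not be told, since some libraries with different numbers were as alike.

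Summed over copies, the level of PDIL1-1/PDI5 was 367 ± 30.2 RPKM in HS + TSAhigh (SD, n = 3) and 384 ± 75.1 in HS + TSAlow (SD, n = 4), against 309 ± 85.0 in pollen (SD, n = 3), with overlap. PDIL2-2/PDI10 summed to 96.7, 123 and 151 RPKM in HS + TSAhigh and to 56.7, 96.6, 94.5 and 65.1 in HS + TSAlow, against 92.4, 148 and 180.2 in pollen. All 6 copies together gave 491 ± 52.5, 463 ± 95.3 and 449 ± 128 RPKM in HS + TSAhigh, HS + TSAlow and pollen, so the total overlapped across the groups while its makeup differed.

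The ratio of the PDIL1-1/PDI5 sum to the PDIL2-2/PDI10 sum differed between the groups. It was 3.73, 2.77 and 2.65 in HS + TSAhigh and 5.27, 4.63, 4.73 and 5.29 in HS + TSAlow, against 2.56, 1.95 and 2.23 in pollen. No 2 groups overlapped, although HS + TSAhigh library 3 was close to pollen library 1. This ratio is given as a description and was not tested, and no such ratio of other genes was set beside it. By another measure, the ratio of 2 copies, 56.4% (HS + TSAlow) and 60% (HS + TSAhigh) of 55 pairs of other ER stress genes did not overlap with pollen.

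**Figure D5:**
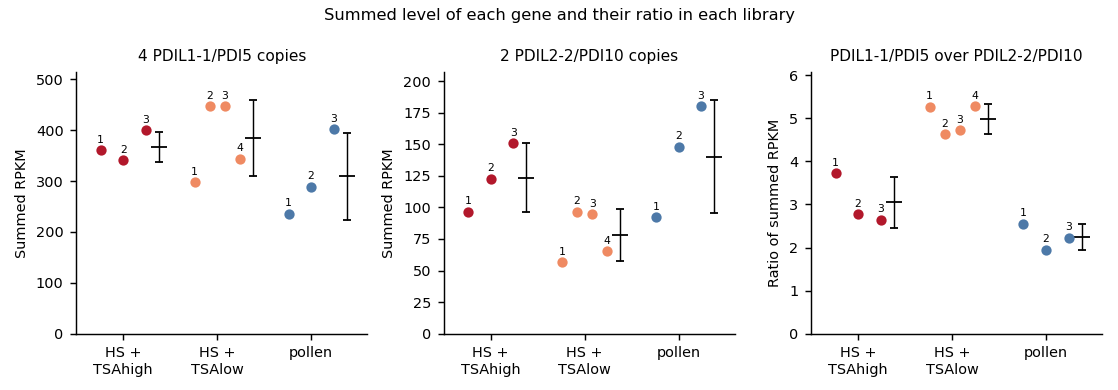
Summed RPKM of the 4 PDIL1-1/PDI5 copies and of the 2 PDIL2-2/PDI10 copies, and the ratio of the sums (y axes, linear from 0), in each library of HS + TSAhigh, HS + TSAlow and pollen; points are libraries with their number and bars are the mean and SD. The ratio lies at 2.65 to 3.73 in HS + TSAhigh, at 4.63 to 5.29 in HS + TSAlow and at 1.95 to 2.56 in pollen.

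Within pollen the copies varied together. All 6 were lowest in pollen library 1 and highest in pollen library 3, with CPM 1.66 to 2.00 times as high in library 3 as in library 1. The same order was seen in 26 of the 46 other ER stress genes (56.5%) and in 17.7% of all tested genes. Within HS + TSAlow 5 of the 6 copies were higher in both libraries 2 and 3 than in both libraries 1 and 4, and PDIL1-1/PDI5.3 was the exception. That order was seen in 22 of the 46 other ER stress genes (47.8%) and in 29.8% of all tested genes. Within HS + TSAhigh there was no shared order: both PDIL2-2/PDI10 copies, PDIL1-1/PDI5.2 and PDIL1-1/PDI5.4 were highest in library 3, whereas PDIL1-1/PDI5.3 was lowest there and PDIL1-1/PDI5.1 was too. Coefficients of variation within groups were 6.18% to 32.8%. The lowest count of any member was 1545 reads, and the largest counting error of a copy, taken as if both mates of each pair had been counted, was 1.46% to 3.60% by copy, which leaves out the added error of PCR. What set these libraries apart was not tested.

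Over the 10 libraries the pattern of log2 CPM most like that of each copy was sought among all other tested genes by Pearson's r. The 10 points share 3 groups, and within groups the libraries also differed in common ways, as given above. Such an r therefore mixes group means with library differences and carries no p. PDIL1-1/PDI5.2 and PDIL1-1/PDI5.4 correlated by 0.948, and no other gene was more like PDIL1-1/PDI5.4, while 1 was more like PDIL1-1/PDI5.2. Both PDIL2-2/PDI10 copies correlated by 0.933, with 24 genes more like PDIL2-2/PDI10.1 and 3 more like PDIL2-2/PDI10.2. PDIL1-1/PDI5.1 was most like another ER chaperone, a calnexin copy: its r with CNX1.2 was 0.944, with 1 gene more alike, and with CNX1.4 it was 0.873. Its r with PDIL1-1/PDI5.2, a co-ortholog of the same arabidopsis gene, was 0.02 over the 10 libraries. Within pollen, however, both copies had the same order of libraries. Within HS + TSAlow both were higher in libraries 2 and 3 than in 1 and 4. Within HS + TSAhigh their orders differed, and their means lay on opposite sides of pollen in both comparisons.

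Among the listed genes other than PDIs, PDIL2-2/PDI10.1 was most like the BiP co-chaperone copy ERDJ3B.4 (r = 0.870, with 172 of all tested genes more alike) and PDIL2-2/PDI10.2 most like S1P.1, a copy of a protease that activates ER stress factors (r = 0.863, with 48 more alike). PDIL1-1/PDI5.2, PDIL1-1/PDI5.3 and PDIL1-1/PDI5.4 were each most like P24DELTA5.2, a copy of a cargo receptor of ER to Golgi transport, with r of 0.735, 0.717 and 0.669, but 2463, 4091 and 1644 of all tested genes were more alike. P24DELTA5.2 also lies near PDIL1-1/PDI5.4 on C08, 32.4 kb away. It rose in both comparisons over pollen, with log2 fold changes of 0.94 in HS + TSAhigh (edgeR adjusted p = 0.00607) and 1.58 in HS + TSAlow (edgeR adjusted p = 0.000202). The least alike pair of members was PDIL1-1/PDI5.3 with PDIL2-2/PDI10.1 (r = -0.63).

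Of the 12 tested genes nearest to the copies, 1 on each side, 5 rose and 1 fell in HS + TSAlow over pollen, beside 26.4% and 17.4% of all tested genes. Those called beside PDIL1-1/PDI5.1, PDIL1-1/PDI5.2 and PDIL1-1/PDI5.4, copies that did not pass, had low levels (mean CPM of 0.47 to 3.80). Called neighbours had the sign of the copy beside them in 4 of 5 cases in HS + TSAhigh over pollen and in 1 of 2 between the doses, which was not tested. In HS + TSAlow over pollen 5 of the 6 had that sign, whether or not that copy passed. The exception, 433 bases from PDIL2-2/PDI10.2, was C05p03180.1_BnaDAR, which rose with a log2 fold change of 1.05 in HS + TSAlow over pollen (edgeR adjusted p = 0.00174), where PDIL2-2/PDI10.2 fell. The gene 995 bases from PDIL1-1/PDI5.3, C07p22000.1_BnaDAR, rose by 0.67 on the log2 scale in HS + TSAlow over pollen (edgeR adjusted p = 0.00311), as PDIL1-1/PDI5.3 did. The files give neither gene a name. The kit used does not mark strand, so reads that run past the end of 1 gene could be counted in a neighbour, and their share was not tested.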

How the data were processed

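RNA of 10 libraries (SMART-seq v4 cDNA, Nextera XT, paired reads) was aligned by the authors to the *B. napus* Darmor-bzh version 10 genome with STAR, and reads on exons were assigned to genes with featureCounts. Versions differ between sources: STAR 2.7.10a with Subread 1.5.2 come from the submitters' processing notes, and the paper gives others. The deposited raw counts per gene were used. Among genes with over 100 counts 60.2% to 70.3% of counts were even, so mates of a pair may have been counted singly, and how they were counted is not given in the sources used here; counts then overstate independent fragments, and PCR copies add to this. The deposited normalized counts, a signal that the authors made by dividing counts by DESeq2 size factors, served as an alternative. Deposited fold changes and p-values from DESeq2 were not used.

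Of 61170 rows, 1712 exact repeats were removed. A filterByExpr filter (minimum count 10, minimum total 15) and TMM scaling came first, and genes were tested with the quasi-likelihood test of edgeR 4.0.16 in R 4.3.3, fitting the 10 libraries together and adjusting p over 45264 genes after Benjamini-Hochberg, with a threshold of 0.05. The standard error is the log2 fold change over the square root of F. The procedure was tested on simulated data. Copy ratios were compared by exact permutation tests (numpy 2.4.6, scipy 1.17.1), and figures drawn with matplotlib 3.10.9. Alternatives were DESeq2 1.42.0, limma-voom and limma-trend on log2(value + 1) (limma 3.58.1), RLE and upper-quartile factors, no filter, CPM of at least 1 in at least 3 libraries, 2-group fits, the replicate number as a block, halved counts, each library left out, HS + TSAlow libraries 1 and 4 averaged, and an adjusted p of at most 0.01. Leaving out libraries 1 and 4, with or without HS + TSAhigh library 1, and pairing the copy ratios by replicate number were chosen after seeing the data.

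The named genes were the 6 copies, up to 2 genes of the ER stress list most like each, and listed genes beside them. The members and lists were chosen with earlier results of these data known. Same-numbered HS + TSAhigh and HS + TSAlow libraries deviated together from their group means (r = 0.352, 0.135 and 0.207). Some libraries with different numbers deviated together as much (HS + TSAhigh 3 with HS + TSAlow 2, r = 0.212; HS + TSAhigh 1 with HS + TSAlow 4, r = 0.286; HS + TSAhigh 2 with HS + TSAlow 3, r = 0.189), along the sets of libraries that stood apart. For same-numbered libraries with pollen r was -0.001 to 0.102. Whether the numbers pair the libraries can therefore not be told, and results blocked or paired by number are alternatives only. None of the gene IDs matched the reference gene table, and no sequences were used.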

Additional observations from a re-analysis of the deposited data

How the results depend on the processing

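Counts of PDI copies called were small and moved with the setting. Of the 3 copies called in HS + TSAlow over pollen, PDIL1-1/PDI5.3 and PDIL2-2/PDI10.1 were called in all 23 alternatives, and leaving out 1 library gave 2 to 4 called copies. In HS + TSAhigh over pollen, where 1 copy was called, 0 were called with HS + TSAlow libraries 1 and 4 averaged or left out, with HS + TSAhigh library 1 also left out, with the stricter filter, with only 2 groups in the fit or at an adjusted p of at most 0.01, 2 were called by limma-voom, and leaving out 1 library gave 0 to 2. In HS + TSAhigh over HS + TSAlow, where 1 copy was called, 0 were called with libraries 1 and 4 averaged or left out, with HS + TSAhigh library 1 also left out, by limma-voom or at 0.01, and leaving out 1 library gave 0 or 1. The cause was not tested.

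Over all genes, 19791 were called in HS + TSAlow over pollen and 13009 at 0.01. In HS + TSAhigh over HS + TSAlow 4709 were called, against 2828 with HS + TSAlow libraries 1 and 4 averaged, 1980 with both left out, 2836 with the replicate block, 8192 by DESeq2, 985 at 0.01, and 2051 to 6477 with 1 library left out. The replicate block kept the call of PDIL2-2/PDI10.1 in HS + TSAhigh over HS + TSAlow (log2 fold change 0.87, adjusted p = 0.0169). Over pollen, where same-numbered libraries deviated together little, it brought PDIL1-1/PDI5.2 under the threshold (adjusted p = 0.0177 in HS + TSAlow and 0.0183 in HS + TSAhigh). It also ended the call of PDIL1-1/PDI5.3 in HS + TSAhigh (adjusted p = 0.0663). Whether the numbers pair the libraries in any comparison could not be told. Pairing the copy ratios by replicate number turned no direction between the doses (log2 differences of -0.30 to 0.41 over 7 pairs of copies). Under upper-quartile factors PDIL2-2/PDI10.2 was no longer called in HS + TSAlow over pollen (adjusted p = 0.0625) and PDIL1-1/PDI5.2 was (adjusted p = 0.0378). With no filter on low counts edgeR called a different copy in HS + TSAhigh over pollen. That was PDIL1-1/PDI5.1, which was lower (adjusted p = 0.0452), and not PDIL1-1/PDI5.3 (adjusted p = 0.0842).

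Signs changed only for small values that had not passed a test. In HS + TSAhigh over pollen PDIL2-2/PDI10.1 gave 0.032 with HS + TSAlow libraries 1 and 4 and HS + TSAhigh library 1 left out, and with 1 library left out it ranged from -0.38 to 0.037 and PDIL2-2/PDI10.2 from -0.43 to 0.033. In HS + TSAhigh over HS + TSAlow PDIL1-1/PDI5.1 gave 0.00 by DESeq2 and under RLE factors and 0.022 on the normalized counts, and -0.12 to 0.082 with 1 library left out. PDIL1-1/PDI5.2 gave -0.05 with libraries 1 and 4 averaged, -0.20 with both left out, -0.17 with HS + TSAhigh library 1 also left out, -0.016 with the replicate block, -0.027 with upper-quartile factors, and -0.11 to 0.11 with 1 library left out. PDIL1-1/PDI5.4 gave 0.032 on the normalized counts and -0.19 to 0.11 with 1 library left out. Copy ratios that changed sign when 1 library was left out were, in HS + TSAhigh over HS + TSAlow, PDI5.1 over PDI5.2 (-0.18 to 0.11), PDI5.1 over PDI5.4 (-0.12 to 0.14, and 0.026 with HS + TSAlow libraries 1 and 4 averaged) and PDI5.2 over PDI5.4 (-0.019 to 0.095), and in HS + TSAhigh over pollen, PDI10.1 over PDI10.2 (-0.055 to 0.095), PDI5.2 over PDI5.3 (-0.24 to 0.21) and PDI5.3 over PDI5.4 (-0.059 to 0.41).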
